A study of Homo sapiens with 18 samples.

Results

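The genes described here are the histone genes of the 4 named histone gene clusters, those with symbols that start with HIST1H, HIST2H, HIST3H or HIST4H, in U2OS cells, a human osteosarcoma line. Symbols that mark pseudogenes by a closing P or PS were left out, and the deposited mean normalized count had to be at least 10. By this rule 26 of the 26702 genes in the deposited tables were members, out of 46 cluster genes with such a name. The 20 that were left out for a low mean include HIST2H2BD with a mean of 8.68 and HIST1H4C with 8.63, just outside the limit, while HIST1H3B with 10.7 and HIST1H3A with 14.2 stood just inside. No HIST3H gene reached the limit. By class there were 2 H1, 4 H2A, 9 H2B, 4 H3 and 7 H4 genes, and by cluster 20 HIST1, 5 HIST2 and 1 HIST4 gene. All 26 were listed in each of the 6 deposited tables. HIST2H2BC is annotated as a processed pseudogene in the tables although its symbol does not say so, and it stays a member by the rule.

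The cells were transfected with siControl, with siANKRA2 or with siRFXANK, and were then treated for 24 h with DMSO or with 10 µM Nutlin-3a, which gives 6 groups of 3 samples each and 18 samples in all. Nutlin-3a frees p53 by blocking MDM2, its inhibitor, and DMSO is the solvent that the control cells received. ANKRA2 and RFXANK are related ankyrin repeat proteins, and RFXANK is a subunit of the RFX complex that drives HLA class II genes. No sample is untransfected, each siRNA target is compared with siControl only, and the siRFXANK samples were registered apart from the others without siControl samples of their own. In siRFXANK over siControl, the knockdown and the batch of samples cannot be told apart. The sources do not say whether the 3 samples of a group came from separate cultures, so the p-values measure only the spread between these samples, which may be technical.

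Cluster histone genes encode the histones that package newly replicated DNA, and most of them are transcribed in S phase only. Their mRNAs as a rule carry no poly(A) tail and end instead a few bases behind a conserved stem-loop, which SLBP binds and the histone pre-mRNA processing machinery reads. A part of these genes also makes longer, spliced or unspliced transcripts that run past the stem-loop to a polyadenylation signal, and such polyadenylated forms are known from differentiated and non-dividing cells. The libraries were made from polyadenylated RNA, so the values below speak of polyadenylated transcripts and not of the stem-loop mRNA that S phase cells hold in bulk.

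The stem-loop was looked for in the GENCODE 29 transcripts because it marks where the replication-dependent mRNA would end. Of the 25 members whose gene ID is in that annotation, 18 (72%) had a transcript that contains the histone stem-loop motif, against 44 of 58676 annotated genes (0.075%). In these 18 members, 6 different stem-loops occurred. They are shown with 5 bases on either side, with the stem and the loop in capitals, for 1 member each:

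HIST1H2AC: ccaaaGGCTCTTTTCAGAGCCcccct
HIST1H2AG: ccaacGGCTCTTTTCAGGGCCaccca
HIST1H2BC: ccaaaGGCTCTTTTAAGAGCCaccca
HIST1H3E: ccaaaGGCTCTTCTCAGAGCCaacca
HIST1H4H: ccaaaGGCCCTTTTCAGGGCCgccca
HIST2H4A: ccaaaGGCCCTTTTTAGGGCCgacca

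The form shown for HIST1H2AC was held by 6 members, that for HIST1H4H by 4, and those for HIST1H2BC and HIST2H4A by 3 each, while those for HIST1H2AG and HIST1H3E were found in 1 member each. The annotated transcript went on for 6 to 1862 nt behind the stem-loop, with a median of 895.5 nt. In 14 of the 18 it went on for at least 200 nt, and in 11 the polyadenylation signal AATAAA followed. The longest such stretches were 1862 nt in HIST1H3E, 1761 nt in HIST1H2AG and 1729 nt in HIST2H2BE. In 7 members, among them HIST1H1C, HIST1H2BJ and HIST1H2BK, the annotated transcripts held no match, which says only that these letters are not in them. HIST1H1C, HIST1H2BK, HIST1H3A, HIST1H3B and HIST2H2AC have 1 annotated transcript each, of 381 to 642 nt, which may end before a stem-loop.

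Several members encode the same protein. All 7 H4 genes shared an open reading frame of 103 residues and all 4 H3 genes one of 136 residues, as translated from the transcripts. HIST1H2BC, HIST1H2BE and HIST1H2BF shared one of 126 residues, and HIST1H2AG and HIST1H2AI one of 130. Of the longest transcript, cut into stretches of 31 bases, less than 20% also occurred in transcripts of other genes for 19 members, but at least 50% did for 6. These were HIST2H4A and HIST2H4B, which held each other's transcripts to 100%, HIST1H2BK with 86.3% (74.4% in H2BFS), HIST1H4J with 82.2% (in HIST1H4K), HIST1H2AI with 63.8% (in HIST1H2AJ) and HIST2H2AC with 50.6%. Reads of these 6 can be split with other genes, so their values are uncertain. HIST1H2BD, HIST1H2BE, HIST1H2BN, HIST2H4A and HIST2H4B also overlap other annotated genes.

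Values per library and the depth of the libraries were not available for this report, and each comparison is given by its log2 fold change with the standard error. In the deposited tables ANKRA2 was at -1.81 after siANKRA2 in DMSO and at -2.58 in Nutlin-3a, and RFXANK at -2.96 and -3.16 after siRFXANK, a direction that was used to read the sign of the tables. The labels of the siRFXANK samples name epithelial cells of bone, and the line is an osteosarcoma. The bone and mesenchyme markers COL1A1 (mean 64042), VIM (55026), SPARC (29456) and FN1 (13146) were high. RUNX2 was at 454, ALPL at 148, COL1A2 at 33.2 and BGLAP at 2.08, and IBSP was not listed. Of the epithelial markers, KRT8 (21456) and KRT18 (12960) were high. CLDN4 was at 599, EPCAM at 161, CDH1 at 32.9, ESRP1 at 7.77, KRT5 at 3.56 and KRT19 at 1.67. Group levels of a member are given below in normalized counts on a scale on which the 6 groups average to the deposited mean. Their ratios are those of the fold changes, and their scale is approximate, since the scale that the standard errors imply differed from it by a factor of 0.715 to 1.19 over the members. Levels are compared between groups of 1 gene and not between genes.

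The first question is how p53 activation moved the members in siControl cells. Polyadenylated transcripts of 5 of 9 H2B, 4 of 7 H4, 2 of 4 H2A and 1 of 4 H3 genes fell under Nutlin-3a. Neither of the 2 H1 genes passed the test, and HIST1H3E, HIST4H4 and HIST1H2AI rose. At an adjusted p under 0.05, 12 of 26 members were lower (46.2%, against 21.2% of all genes tested) and 3 were higher (11.5%, against 21.9%), and 11 did not pass. Genes with low means, which the members cannot have, are part of all genes tested and pass less often. Among the 18456 genes with a mean of at least 10, 28.9% were lower and 28.8% higher, and such shares are given below beside those of all genes. The median log2 fold change of the members was -0.45, while that of these 18456 genes was 0.01. In bulk RNA, fewer cells in a phase of the cell cycle and less RNA per cell cannot be told apart.

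**Figure D1:**
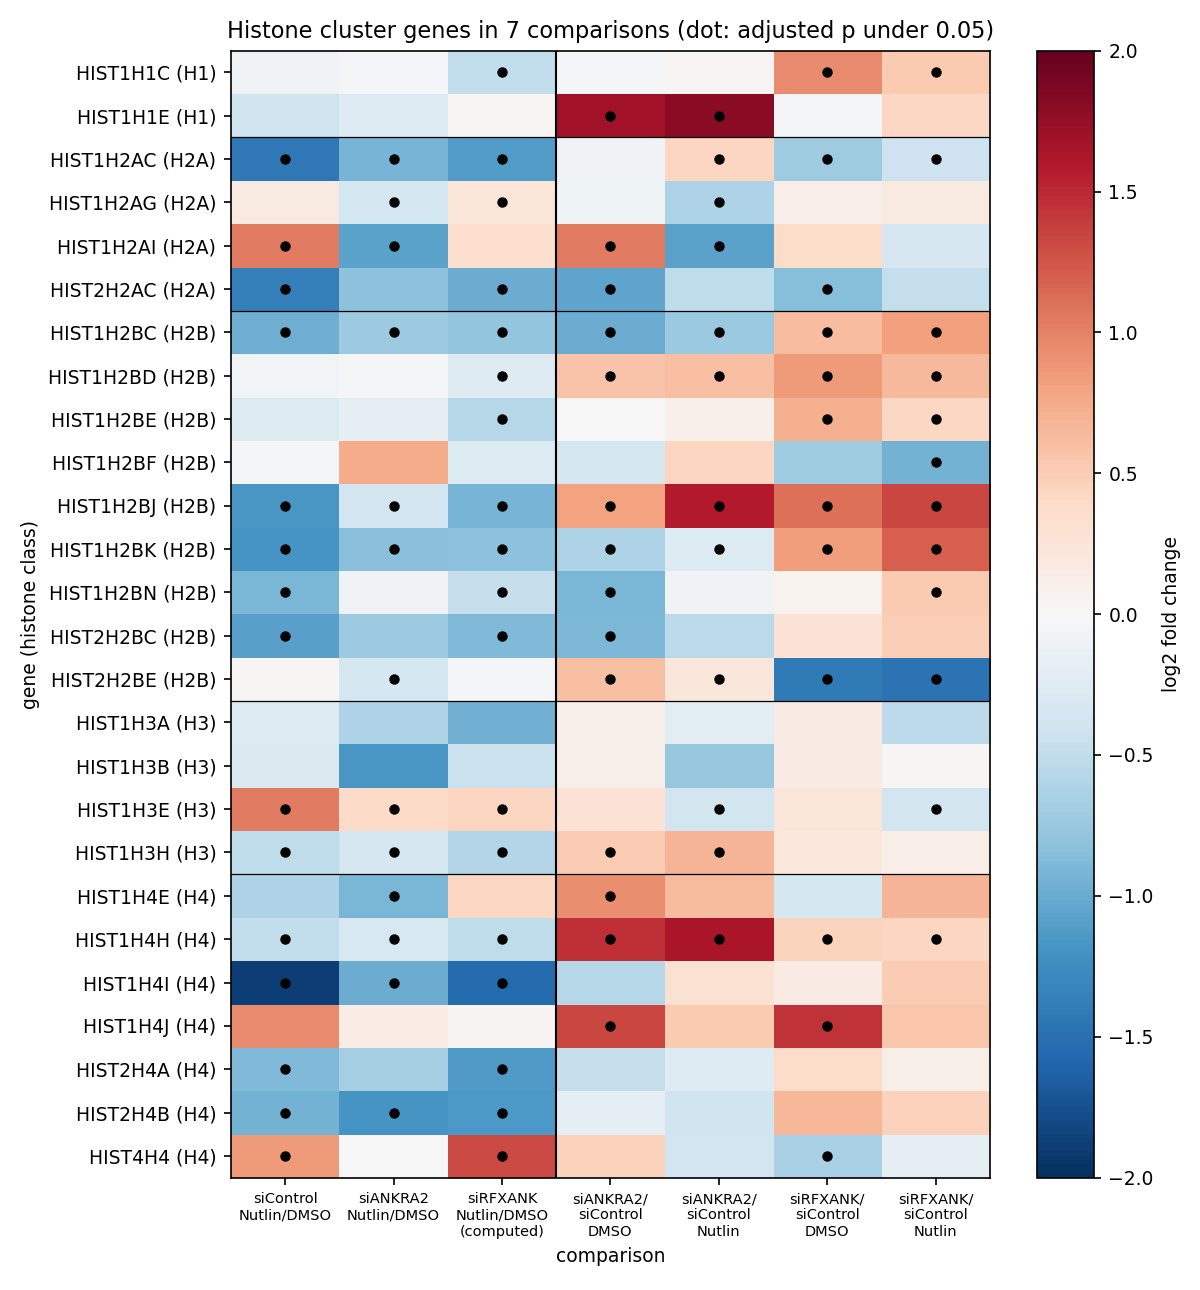
Log2 fold change (colour) of the 26 histone cluster genes, sorted by class, in 6 deposited comparisons and in the computed Nutlin-3a response of siRFXANK cells. A dot marks an adjusted p under 0.05, and the 3 columns left of the vertical line, which compare Nutlin-3a with DMSO, hold 12, 12 and 15 lower members.

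Among the H2A genes, HIST1H2AC (chr6:26124145-26139116, plus strand) had approximate levels of 3519.8 in siControl DMSO, 1307 in siControl Nutlin-3a, 3365 and 1769.6 in siANKRA2 and 2148 and 985.5 in siRFXANK cells, DMSO first. In each transfection the Nutlin-3a group was the lower of the pair. In siControl cells it fell 2.69-fold (log2 fold change -1.43, standard error 0.04, deposited DESeq2 adjusted p = 1.5e-231). HIST2H2AC fell too, by 1.37 on the log2 scale (standard error 0.31), at a mean of 24.2. HIST1H2AG (chr6:27133042-27135291, plus strand) was at 0.18 with a 95% interval from 0.00 to 0.37 and did not pass the adjusted threshold. HIST1H2AI rose by 1.03 (standard error 0.41, deposited DESeq2 adjusted p = 0.027), but its levels of 11.3 and 23.2 are low and its sequence is shared.

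Of the 9 H2B genes 5 fell in siControl cells and none rose, with a median of -0.92. Of all genes tested, 21.2% were lower and 21.9% higher, and of those with a mean of at least 10, 28.9% and 28.8%. HIST1H2BK (chr6:27146418-27146798, minus strand) went from a level of 5335 to 2367.5 and fell 2.25-fold (log2 fold change -1.17, standard error 0.05, deposited DESeq2 adjusted p = 5.5e-124). HIST1H2BJ (chr6:27125897-27132750, minus strand) went from 873 to 389.9 and fell 2.24-fold (-1.16, standard error 0.07, deposited DESeq2 adjusted p = 1.5e-69). HIST1H2BC (chr6:26114873-26123926, minus strand) went from 269.9 to 137 and fell 1.97-fold (-0.98, standard error 0.11). The 3 genes lie between -0.98 and -1.17, whereas HIST1H2BD (-0.05, 95% interval -0.18 to 0.08) and HIST2H2BE (0.02, -0.09 to 0.14) did not pass the test, and their intervals hold no change of that size. HIST1H2BN and HIST2H2BC, with means of 73.9 and 19.2, were the other H2B genes that fell.

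The H3 and H4 classes, within each of which the encoded protein is the same, moved in both directions. HIST1H3E (chr6:26224199-26227473, plus strand) rose 2.06-fold, from a level of 71.6 to 147.5 (log2 fold change 1.04, standard error 0.15, deposited DESeq2 adjusted p = 4.8e-11). HIST1H3H (chr6:27810064-27811300, plus strand) fell 1.43-fold, from 116 to 81.6 (-0.51, standard error 0.15, deposited DESeq2 adjusted p = 0.0028). HIST1H3A and HIST1H3B, the members nearest to the limit on the mean, passed the test in none of the 6 deposited comparisons. HIST4H4 (chr12:14767999-14771131, minus strand), the only member outside the HIST1 and HIST2 clusters, rose 1.80-fold, from 44.4 to 79.8 (0.85, standard error 0.20, deposited DESeq2 adjusted p = 9.6e-05). By contrast HIST1H4H (chr6:26277609-26285638, minus strand) fell 1.41-fold, from 395 to 279.8 (-0.50, standard error 0.08), and HIST1H4I, at a mean of 33.7, had the lowest value of any member, -1.88 (standard error 0.35). In HIST2H4A and HIST2H4B, which cannot be told apart by sequence, values of -0.88 and -0.95 were listed.

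The remaining class is that of the linker histones. HIST1H1C (chr6:26055787-26056428, minus strand), which encodes a linker histone and has the highest deposited mean of the members, 11397, was at -0.08 with an interval from -0.19 to 0.03. HIST1H1E, also a linker histone gene, was at -0.39 (-0.92 to 0.13). Neither passed the test, and the classes were not tested against each other.

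The next question is whether the response to Nutlin-3a was the same after knockdown. In siANKRA2 cells again 12 of 26 members fell (46.2%, against 17% of all genes tested) and 1 rose (3.85%, against 15.5%), with a median of -0.37. With a mean of at least 10, 20.6% of genes were lower and 18.4% higher. Of the members that fell, 8 did so in both transfections, which is 66.7% of each list, and no library is shared between them. Of the 18456 genes above the minimum mean, those that fell in both were 56% of the siControl and 78.3% of the siANKRA2 list. The 8 members were HIST1H2AC, HIST1H2BC, HIST1H2BJ, HIST1H2BK, HIST1H3H, HIST1H4H, HIST1H4I and HIST2H4B. HIST1H3E was the gene that rose in both, and HIST1H2AI was called in opposite directions. Across the 26 members Pearson's r of the log2 fold changes was 0.52, as a description over genes of 1 joint fit, and over the 18456 genes it was 0.79.

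In siRFXANK cells the response was computed from the deposited comparisons, and 15 of 26 members were lower (57.7%, against 22.5% of all genes tested) and 3 higher (11.5%, against 22.8%), with a median of -0.50. With a mean of at least 10, 29.6% of genes were lower and 29.2% higher. All 12 members that fell in siControl cells fell here as well (80% of the 15), where 73.8% of the siControl and 71.9% of the siRFXANK list were shared among all genes above the minimum mean. HIST1H1C, HIST1H2BD and HIST1H2BE were called lower here and not in siControl cells, and the difference from siControl cells passed its own test for HIST1H1C but not for the other two. Of those that rose, HIST1H3E and HIST4H4 did so in both transfections, and HIST4H4 had a level of 28.2 in DMSO and 70.0 in Nutlin-3a, a rise of 2.49-fold (normal test, Benjamini-Hochberg adjusted p = 3e-08).

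**Figure D2:**
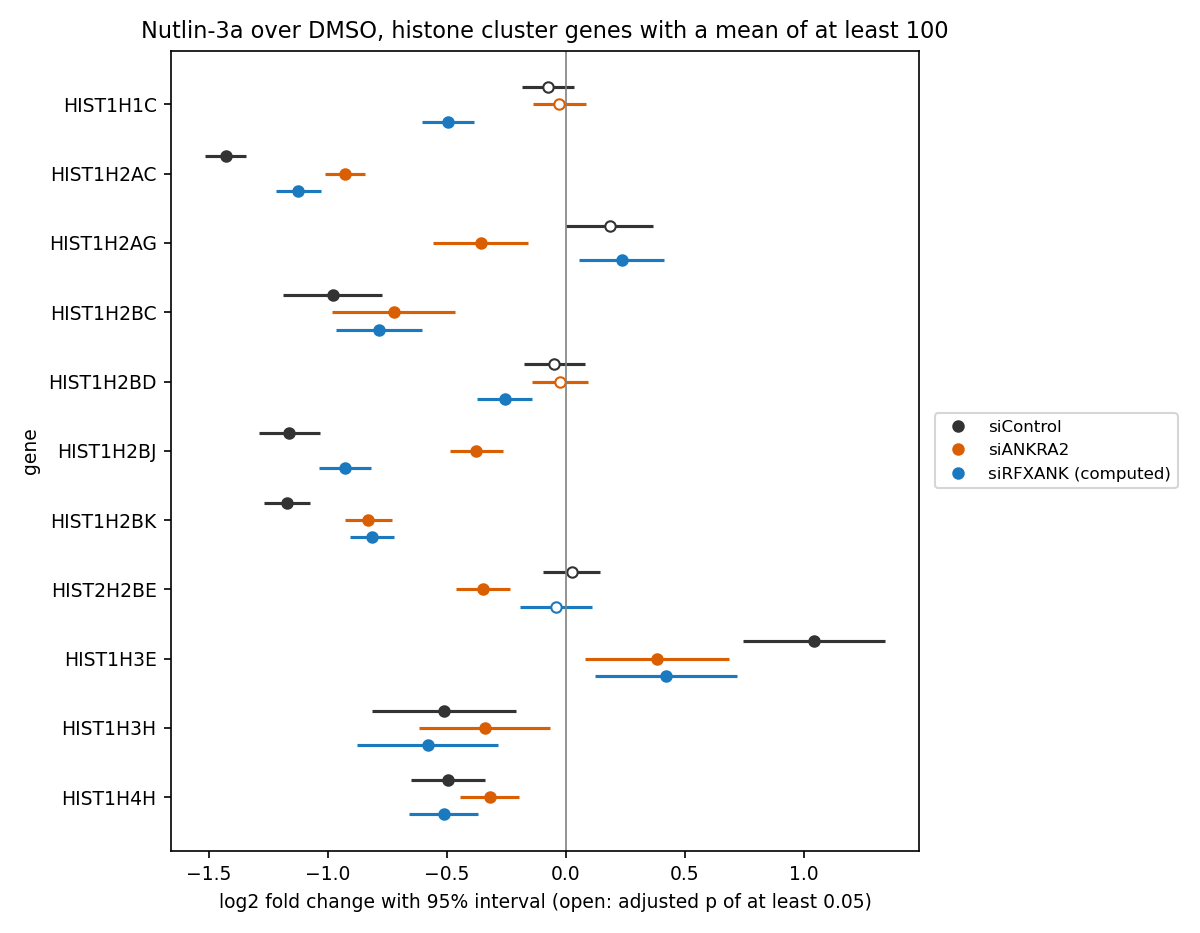
Log2 fold change of Nutlin-3a over DMSO with the 95% interval for the 11 histone cluster genes with a mean of at least 100, in siControl, siANKRA2 and siRFXANK cells. HIST1H2AC, HIST1H2BC, HIST1H2BJ, HIST1H2BK, HIST1H3H and HIST1H4H lie left of 0 in all 3 transfections, and HIST1H3E lies right of it. The intervals of siANKRA2 and siControl cells stand apart for HIST1H2AC, HIST1H2AG, HIST1H2BJ, HIST1H2BK, HIST1H3E and HIST2H2BE.

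The difference between the responses was then tested itself. Between siANKRA2 and siControl cells, 4 members had a higher log2 fold change after siANKRA2 (11.4% of all genes did) and 5 a lower one (12.5% of all genes), so that 17 did not pass. With a mean of at least 10, 14% of genes had a higher and 15.2% a lower one, so the counts of members are near the background. HIST1H2BJ showed the clearest of these differences, 0.79 (standard error 0.09, normal test, Benjamini-Hochberg adjusted p = 4.1e-18), because the fall of 1.16 in siControl cells compares with one of 0.38 in siANKRA2 cells. HIST1H2AC differed by 0.50 (standard error 0.06) and HIST1H2BK by 0.34 (0.07), so that their falls were smaller but still past the threshold. HIST1H2BN differed by 0.85 (0.28). In the other direction, HIST1H3E rose less, by a difference of -0.66 (0.22), and HIST4H4, at -0.00 in siANKRA2 cells, differed by -0.85 (0.28). HIST1H2AG differed by -0.54 (0.14) and HIST2H2BE by -0.37 (0.08), since both fell in siANKRA2 cells, by 0.36 and 0.35. HIST1H2AI differed by -2.11 (0.58), at the low levels given above.

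Between siRFXANK and siControl cells 3 members had a higher log2 fold change after siRFXANK (11.6% of all genes did) and 2 a lower one (9.64% of all genes), against 15.6% and 13% of genes with a mean of at least 10. The higher ones were HIST1H2BK with a difference of 0.36 (standard error 0.07, normal test, Benjamini-Hochberg adjusted p = 4.3e-06), HIST1H2AC with 0.30 (0.06) and HIST1H2BJ with 0.23 (0.09), and the fall was smaller in each. HIST1H1C fell by 0.50 in siRFXANK cells and differed by -0.42 (0.08, normal test, Benjamini-Hochberg adjusted p = 3e-06), and HIST1H3E rose less, by a difference of -0.62 (0.22). For HIST1H4H the difference was -0.02 with an interval from -0.23 to 0.20, and for HIST1H2BC 0.19 (-0.08 to 0.47). Both sets of differences use the siControl samples, so the values are given side by side only.

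With siANKRA2 against siControl, the members split into genes that went up and genes that went down, in both treatments. In DMSO, 9 members were higher (34.6%, against 24.3% of all genes tested) and 5 lower (19.2%, against 24.5%), with a median of 0.06. In Nutlin-3a, 7 were higher (26.9%, against 24.6%) and 5 lower (19.2%, against 25.5%), with a median of -0.03. With a mean of at least 10, 32.7% of genes were higher and 34% lower in DMSO, and 33.4% and 35% in Nutlin-3a, so the members' shares on the higher side are near or below the background and those on the lower side below it. The values of single members follow.

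HIST1H4H rose most among the members with a mean of at least 100. Its level was 395 in siControl DMSO and 1085 in siANKRA2 DMSO, a rise of 2.75-fold (log2 fold change 1.46, standard error 0.07, deposited DESeq2 adjusted p = 4.9e-96), and 279.8 against 869 in Nutlin-3a, a rise of 3.11-fold (1.63, standard error 0.07). Both siANKRA2 groups of HIST1H4H thus stood above all other groups, of which the highest was siRFXANK DMSO with 536. HIST1H2BJ rose 1.74-fold in DMSO (0.80, standard error 0.06) and 3.01-fold in Nutlin-3a (1.59, standard error 0.06, deposited DESeq2 adjusted p = 9.8e-133), and its level in siANKRA2 Nutlin-3a was 1172.5. HIST1H1E, at a mean of 39.5, was higher in DMSO (1.67, standard error 0.23) and in Nutlin-3a (1.80, standard error 0.24), with levels of 78.7 and 65.5 in siANKRA2 cells and 18.8 to 24.9 in the 4 other groups. HIST2H2BE (chr1:149884459-149886652, minus strand) rose by 0.60 in DMSO (standard error 0.06) and by 0.22 in Nutlin-3a (0.06), HIST1H2BD by 0.57 and 0.60, and HIST1H3H by 0.51 and 0.68.

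Other H2B genes went down after siANKRA2. HIST1H2BC fell in DMSO from a level of 269.9 to 135 (deposited DESeq2 adjusted p = 1e-19) and in Nutlin-3a by 0.74 on the log2 scale (standard error 0.13), and its level of 81.9 in siANKRA2 Nutlin-3a was the lowest of the 6 groups. HIST1H2BK fell by 0.62 (0.05) and 0.27 (0.05). HIST1H2AG and HIST1H3E were lower in Nutlin-3a, by 0.62 (0.10) and 0.37 (0.14), while in DMSO they were at -0.08 and 0.29 and did not pass. HIST1H2AC was at -0.07 in DMSO (95% interval -0.14 to 0.01) and rose by 0.44 in Nutlin-3a (0.05). Of the members called higher, 6 were so in both treatments (66.7% of the 9 and 85.7% of the 7), of those called lower 2 were, HIST1H2BC and HIST1H2BK (40% of each), and HIST1H2AI was called in opposite directions. The DMSO and the Nutlin-3a comparison share no library, and r across the 26 members was 0.61, against 0.80 over the 18456 genes. Among these genes, 78.4% and 76.8% of the higher and 77.6% and 75.3% of the lower lists were shared, DMSO first.

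**Figure D3:**
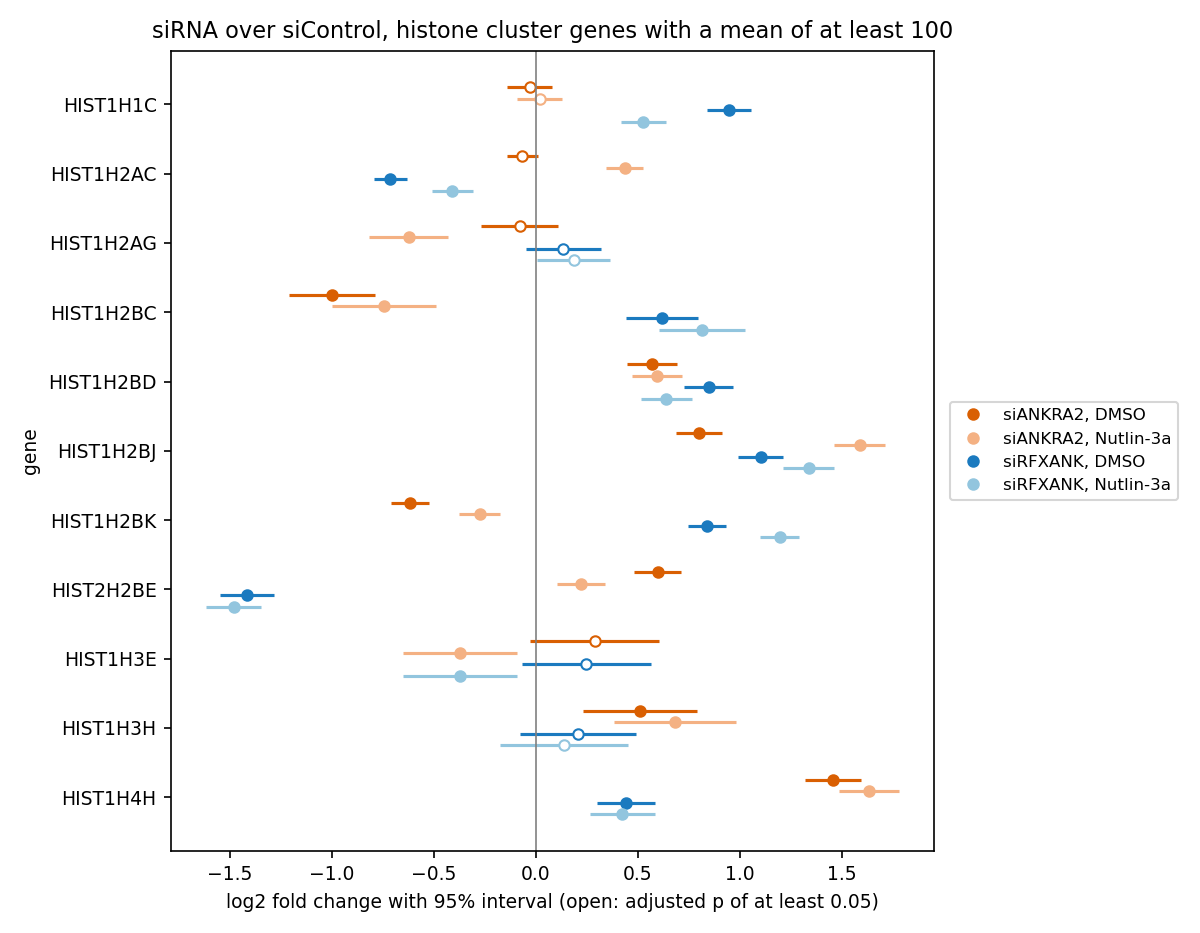
Log2 fold change of each siRNA over siControl with the 95% interval, in both treatments, for the 11 histone cluster genes with a mean of at least 100. HIST1H2BC and HIST1H2BK lie below 0 after siANKRA2 and above 0 after siRFXANK, HIST2H2BE lies above 0 after siANKRA2 and near -1.41 and -1.48 after siRFXANK, and HIST1H2BJ, HIST1H2BD and HIST1H4H lie above 0 in all 4 comparisons.

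After siRFXANK, 8 members were higher in DMSO (30.8%, against 20.9% of all genes tested) and 4 lower (15.4%, against 21.2%), with a median of 0.23. In Nutlin-3a 8 were again higher (30.8%, against 19.8%) and 4 lower (15.4%, against 19.6%), with a median of 0.41. With a mean of at least 10, 28.2% of genes were higher and 29.1% lower in DMSO, and 25.9% each way in Nutlin-3a, so the members' shares on the higher side are near the background. These are the comparisons in which knockdown and batch cannot be told apart. Between the treatments, which have no library in common, 7 of the 8 higher members were shared (87.5% of each list) and 2 of the 4 lower ones (50% of each), and r across the members was 0.77. Among all genes above the minimum mean, 62.6% and 68.1% of the higher and 61.4% and 69.1% of the lower lists were shared, with an r of 0.68. With 26 members, nothing particular to them is read from these overlaps.

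By class, the H2B genes had 5 of 9 higher and 1 lower in DMSO (20.9% and 21.2% of all genes), and 6 higher and 2 lower in Nutlin-3a (19.8% and 19.6% of all genes), and the class was singled out after its values were seen. With a mean of at least 10, the shares of genes were 28.2% and 29.1% in DMSO and 25.9% each way in Nutlin-3a. HIST1H2BJ rose 2.15-fold in DMSO (standard error 0.06 on the log2 scale) and 2.53-fold in Nutlin-3a (1.34, standard error 0.06, deposited DESeq2 adjusted p = 2.1e-92). HIST1H2BK rose 1.79-fold and 2.29-fold (in Nutlin-3a with a deposited DESeq2 adjusted p = 2.4e-128). Its level of 9551 in siRFXANK DMSO was the highest, while 5426 in siRFXANK Nutlin-3a lay close to 5335 in siControl DMSO. HIST1H2BC rose by 0.62 (0.09) and 0.82 (0.11), and HIST1H2BD by 0.85 (0.06) and 0.64 (0.06). HIST2H2BE went the other way, from 1155 to 433 in DMSO (2.67-fold lower, -1.41, standard error 0.07, deposited DESeq2 adjusted p = 1.2e-92) and from 1174 to 421 in Nutlin-3a (2.79-fold lower, -1.48, standard error 0.07). Its siRFXANK groups of 433 and 421 lie below all 4 other groups, 1155 to 1748.

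Outside H2B, HIST1H1C rose 1.93-fold in DMSO, from a level of 9517 to 18347 (log2 fold change 0.95, standard error 0.06, deposited DESeq2 adjusted p = 6.1e-63), and 1.44-fold in Nutlin-3a, from 9026 to 13017. After siANKRA2 the same gene was at -0.03 in DMSO (95% interval -0.14 to 0.08) and 0.02 in Nutlin-3a (-0.09 to 0.13), with levels of 9325 and 9152. HIST1H2AC fell by 0.71 in DMSO (0.04) and by 0.41 in Nutlin-3a (0.05), and HIST1H4H rose by 0.44 (0.07) and 0.43 (0.08). HIST4H4 was lower in DMSO by 0.66 (0.24, deposited DESeq2 adjusted p = 0.016) and at -0.19 in Nutlin-3a, where it did not pass. No H3 gene was called in DMSO, and HIST1H3E was lower in Nutlin-3a, by 0.37 (0.14). HIST1H2BF, chosen after its value was seen, was lower in Nutlin-3a by 0.95 (0.38), at a mean of 20.9.

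H2A and H2B genes of the clusters often lie head to head, transcribed away from a shared stretch of DNA. Among the members there were 3 such pairs with both partners. They are HIST1H2BC with HIST1H2AC, HIST1H2BJ with HIST1H2AG, and HIST2H2BE with HIST2H2AC, where the H2B gene is on the minus strand. The DNA between the RefSeq start sites of both partners (GRCh38.p14, plus strand) is shown because a single stretch serves a pair whose values part. Capitals mark, on either strand, the TATA box with the letters TATAAA, the CCAAT box, and the octamer, which has the letters ATTTGCAT. TATAAA can match both strands at overlapping positions. The stretches are chr6:26123927-26124171, chr6:27132796-27133042 and chr1:149886683-149886917, of 245, 247 and 235 bases:

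HIST1H2BC and HIST1H2AC: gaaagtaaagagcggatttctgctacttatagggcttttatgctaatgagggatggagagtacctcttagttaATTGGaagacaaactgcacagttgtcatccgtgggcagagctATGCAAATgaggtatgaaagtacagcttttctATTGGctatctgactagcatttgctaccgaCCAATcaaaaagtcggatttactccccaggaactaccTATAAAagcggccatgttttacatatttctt
HIST1H2BJ and HIST1H2AG: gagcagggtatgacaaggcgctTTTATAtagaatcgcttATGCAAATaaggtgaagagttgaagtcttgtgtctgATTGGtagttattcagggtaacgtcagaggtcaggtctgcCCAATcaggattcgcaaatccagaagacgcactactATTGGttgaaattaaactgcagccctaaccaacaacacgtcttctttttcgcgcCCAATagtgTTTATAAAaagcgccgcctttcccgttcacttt
HIST2H2BE and HIST2H2AC: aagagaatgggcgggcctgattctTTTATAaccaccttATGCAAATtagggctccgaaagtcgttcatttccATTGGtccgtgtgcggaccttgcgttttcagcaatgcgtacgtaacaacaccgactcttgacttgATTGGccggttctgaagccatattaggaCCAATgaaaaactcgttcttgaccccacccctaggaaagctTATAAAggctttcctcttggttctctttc

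Each stretch holds 1 octamer, with 3, 4 and 3 matches of CCAAT and 1, 3 and 2 of TATAAA. In RefSeq promoters from 250 bases before to 50 bases after the start, which were given for 24 members, the octamer occurred in 3 of 4 H2A and 6 of 8 H2B members and in none of the H1, H3 and H4 members, which makes 37.5% of the members against 1.77% of 35116 promoters. TATAAA occurred in 66.7% of the members against 11.5%, and CCAAT in 75% against 34.6%. A match is a description of the letters and not a site of binding.

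The partners of a pair had different values in most groups. HIST1H2BC and HIST1H2AC both fell under Nutlin-3a in siControl cells (-0.98 and -1.43), but after siANKRA2 in DMSO the H2B gene fell to 50.1% of siControl DMSO while the H2A gene stood at 95.6%, and after siRFXANK in DMSO the former was at 153.8% and the latter at 61.0%. HIST1H2BJ fell under Nutlin-3a to 44.7% while HIST1H2AG stood at 113.6%, and after siRFXANK in DMSO they were at 214.9% and 109.9%. HIST2H2BE stood at 101.7% under Nutlin-3a while HIST2H2AC fell to 38.7%. After siANKRA2 in DMSO HIST2H2BE rose to 151.3% and HIST2H2AC fell to 48.1%, but after siRFXANK in DMSO both were lower, at 37.5% and 55.7%. HIST2H2AC has a mean of 24.2 and shares 50.6% of its transcript with other genes, so the third pair rests on an uncertain value. The difference between partners was not tested.

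**Figure D4:**
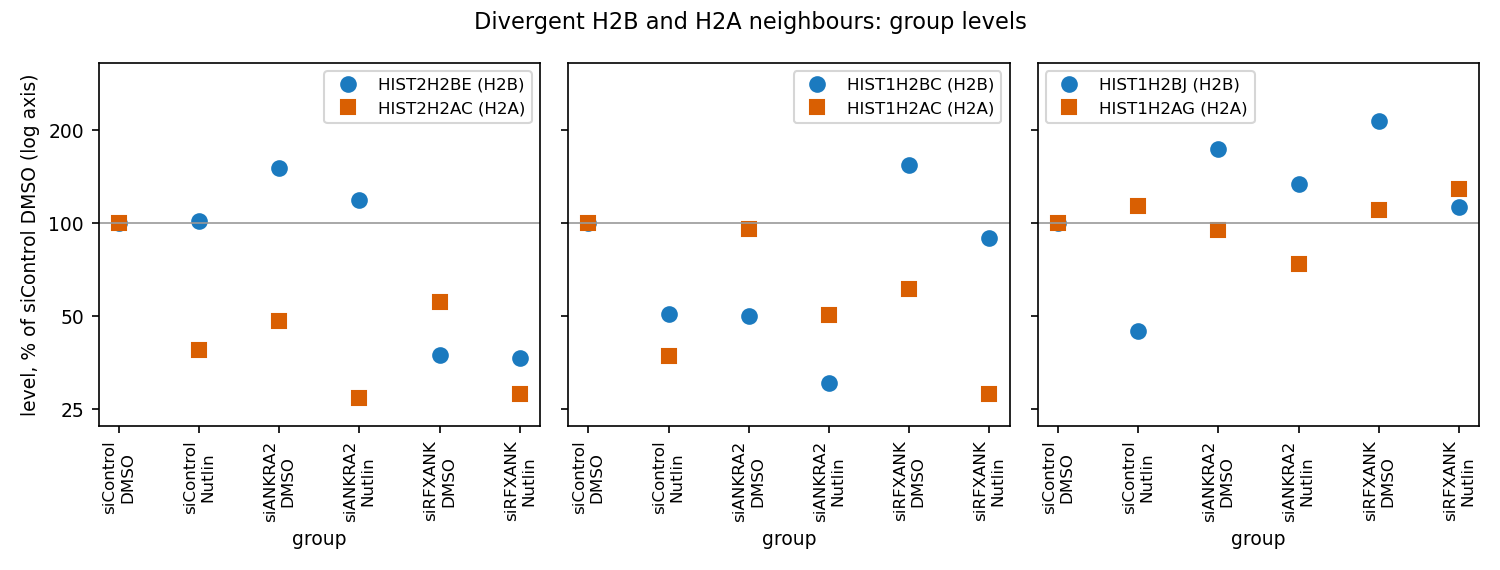
Group level in percent of siControl DMSO (log axis) of the H2B gene (circle) and the H2A gene (square) in each of the 3 head-to-head pairs, for the 6 groups. The partners lie apart in most groups, for example at 44.7% (HIST1H2BJ) and 113.6% (HIST1H2AG) in siControl Nutlin-3a cells.

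Over all 6 deposited comparisons, HIST1H2BC, HIST1H2BJ, HIST1H2BK and HIST1H4H were called in each one, and HIST1H3A and HIST1H3B in none, a description of these genes that was not set against all genes. The siRFXANK DMSO group had the highest level for 13 members and the siANKRA2 DMSO group for 6. The lowest level was in siANKRA2 Nutlin-3a for 10 and in siControl Nutlin-3a for 9 members. These orders come from point estimates, and neighbours in them need not differ beyond their error. Among the 13 are HIST1H3A and HIST1H3B, which were called in no comparison. The orders were not set against all genes, and in the siRFXANK groups knockdown and batch cannot be told apart. Where the transcript ran on for at least 200 nt behind the stem-loop, 7 of 14 members fell and 2 rose under Nutlin-3a in siControl cells, where it ran on for less 1 of 4 fell and 1 rose, and where no stem-loop was found 3 of 7 fell and 0 rose, against 28.9% lower and 28.8% higher of the genes with a mean of at least 10. The medians were -0.50, 0.45 and -0.39, and the 3 sets were not tested against each other. The second set held HIST1H2AI (1.03), HIST1H4J (0.95, not called), HIST1H2BD (-0.05, not called) and HIST1H2BC (-0.98). HIST1H2AI and HIST1H4J have means of 17.0 and 15.2, and 63.8% and 82.2% of their transcripts is shared with other genes. HIST1H2BC and HIST1H2BD were placed by the transcript that holds the stem-loop, which is not their longest one. A missing match does not mean that an mRNA lacks the stem-loop.

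Genes that work with histones were listed beside the members for comparison. In siControl cells, the counts of lower and higher genes under Nutlin-3a stand against 21.2% and 21.9% of all genes tested, and 28.9% and 28.8% of those with a mean of at least 10. The 11 genes listed as replication-independent histone genes, most of which make polyadenylated mRNAs, had a median log2 fold change of -0.73 under Nutlin-3a in siControl cells, with 7 lower and 0 higher. In this list CENPA, the centromere histone, was at -2.23 (standard error 0.06) and H2AFX, the variant phosphorylated at DNA breaks, at -1.98 (0.05). H2AFX is known to make a stem-loop mRNA as well as a polyadenylated one. Of 21 genes for transcription and 3′ end processing of histone mRNA, 16 were lower and 3 higher, with a median of -0.36. They include SLBP, which binds the stem-loop, at -1.24 (0.06), CASP8AP2 at -1.14 (0.11) and NPAT, the coactivator of histone genes, at -0.73 (0.08). Of 21 histone chaperone genes, 17 were lower and 1 higher, with a median of -0.64, and the largest falls were in HJURP (-2.30, standard error 0.06), a chaperone of CENPA, and CHAF1A (-2.19, 0.06), a subunit of CAF-1.

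The S phase genes had lower medians under Nutlin-3a than the histone lists in all 3 transfections. All 29 genes of this list, which holds mainly genes of the replication fork and the origins, fell under Nutlin-3a in siControl cells, with a median of -1.99, and CCNE2, which encodes a cyclin of the G1 to S transition, was at -2.60 (standard error 0.14) and GINS2, of the replicative helicase, at -2.49 (0.08). In siANKRA2 cells 28 of 29 fell and 1 rose, with a median of -1.02. The gene that rose was PCNA, the sliding clamp, named after its value was seen (0.17, standard error 0.05). The difference between the responses was higher for all 29 (median 0.83), whereas among the histone cluster genes it was higher for 4 and lower for 5 of 26 (median 0.11). In siRFXANK cells all 29 fell, with a median of -1.55, and the difference from siControl cells was higher for 23 and lower for 1 (median 0.39), against 3 and 2 of the histone cluster genes. Among genes with a mean of at least 10, such differences were higher for 14% and lower for 15.2% after siANKRA2, and for 15.6% and 13% after siRFXANK. After siANKRA2 in DMSO, 28 of the 29 were lower and 0 higher (median -0.73, against 24.5% lower and 24.3% higher of all genes), while the histone cluster genes stood at 9 higher and 5 lower. In Nutlin-3a, 11 of the 29 were lower and 15 higher after siANKRA2 (median 0.15, against 25.5% lower and 24.6% higher of all genes), and 5 and 7 of the histone cluster genes were. With a mean of at least 10, 34% of genes were lower and 32.7% higher after siANKRA2 in DMSO. In Nutlin-3a these shares were 35% and 33.4%. The part of S phase genes in the values of the members was not tested.

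**Figure D5:**
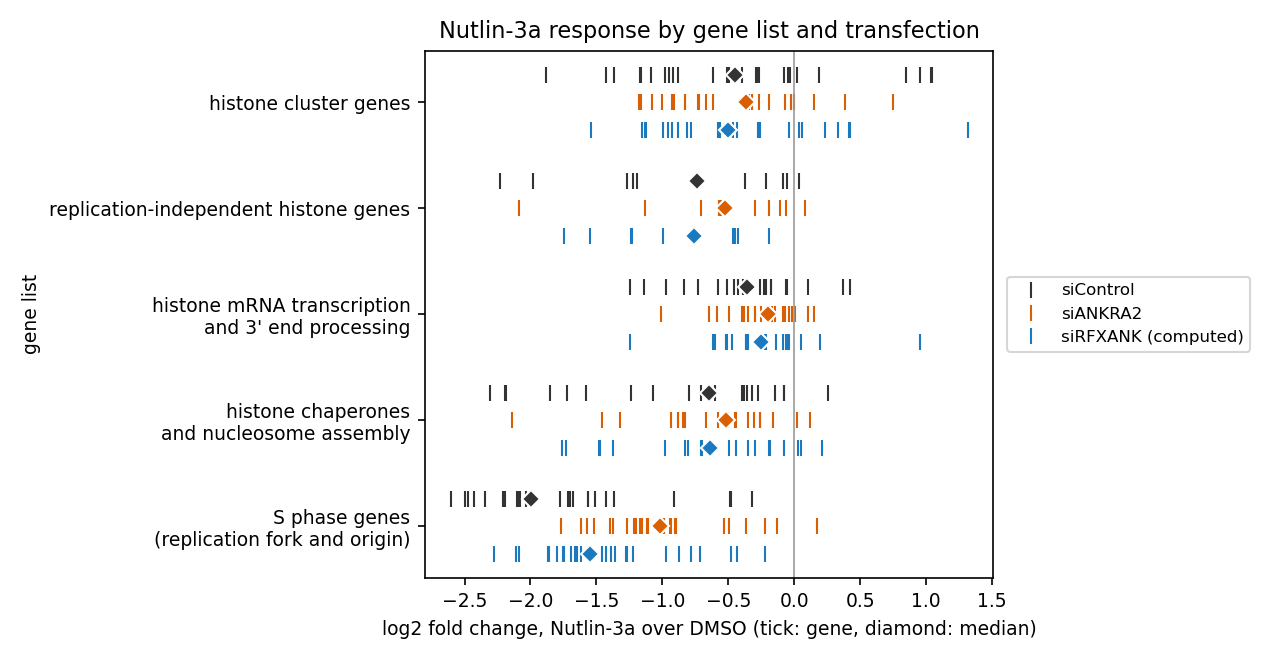
Log2 fold change of Nutlin-3a over DMSO for each gene (tick) and the median (diamond) of the histone cluster genes and of 4 lists, in siControl, siANKRA2 and siRFXANK cells. The medians of the histone cluster genes lie at -0.45, -0.37 and -0.50 and those of the S phase genes at -1.99, -1.02 and -1.55.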

How the data were processed

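Only comparison tables were used, since they are what was given here. The authors made them with DESeq2 1.20.0 per the labels, which also name featureCounts 1.6.5 and the build hg38, with no use of strand stated. Each of the 6 deposited tables lists for every gene the deposited mean of normalized counts (a signal, scaled by the authors), the deposited log2 fold change with its standard error, the authors' Wald score and the deposited p-value, also in adjusted form. No count model could be fitted, and no columns of per-sample values were used. The 4 comparisons without siRFXANK samples add up around a loop, with a largest error of 1.4e-14 on the log2 scale over 22738 genes. These 4 therefore come from 1 joint fit. The siRFXANK tables form no such loop and could not be checked in this way. A gene's mean was the same in every table that lists it (largest difference 0 over 26702 genes). A joint fit of all 6 was assumed, and the computed siRFXANK response and its variance depend on it.

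Calls use the deposited adjusted p-value under 0.05. The Nutlin-3a response of siRFXANK cells was computed as the siControl response plus siRFXANK over siControl in Nutlin-3a minus the same in DMSO, with the variance that the joint fit gives, and differences between responses were tested by a two-sided normal test, with Benjamini-Hochberg adjustment over the 22738 or 25116 genes that both tables hold (Python 3.11.15, scipy 1.17.1). The steps were run on simulated data with independent groups. There the computed siRFXANK response equals the direct one by construction, which checks the arithmetic of that step. Knockdown over siControl was read so that each siRNA target is lower. Intervals are 95%. Depth is unknown.

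Members and gene lists were chosen with earlier results of these data known. The genes named are, per comparison, the 3 largest rises and 3 largest falls among called members with a mean of at least 100, the 5 highest means, members at the limit and a member alone in its cluster. Other members, and HIST1H1E, HIST1H2AI, HIST2H2AC and HIST1H4I with values, were named after their values were seen. Stem-loops, shared 31-base stretches and open reading frames of at least 90 residues come from GENCODE 29 transcripts on GRCh38, promoters from RefSeq.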

Additional observations from a re-analysis of the deposited data

Results flagged for a closer look

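The response to Nutlin-3a differed from that of siControl cells for 9 members after siANKRA2 and for 5 after siRFXANK, by a normal test of the difference with Benjamini-Hochberg adjustment over all genes. Of all genes tested, 11.4% had a higher and 12.5% a lower log2 fold change after siANKRA2, and 11.6% and 9.64% after siRFXANK. With a mean of at least 10, the shares were 14% and 15.2% after siANKRA2 and 15.6% and 13% after siRFXANK. Neither number of members is given as a result about the members as a group. After siANKRA2 the difference in log2 fold change was 0.50 for HIST1H2AC, 0.79 for HIST1H2BJ, 0.34 for HIST1H2BK and 0.85 for HIST1H2BN, and it was -0.54 for HIST1H2AG, -2.11 for HIST1H2AI, -0.66 for HIST1H3E, -0.37 for HIST2H2BE and -0.85 for HIST4H4. After siRFXANK it was 0.30 for HIST1H2AC, 0.23 for HIST1H2BJ and 0.36 for HIST1H2BK, and -0.42 for HIST1H1C and -0.62 for HIST1H3E. HIST1H2AC, HIST1H2BJ, HIST1H2BK and HIST1H3E are in both sets, which share the siControl samples. HIST1H2AI has a mean of 17.0 and HIST1H2BK and HIST1H2AI share at least 50% of their transcripts with other genes.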

How the results depend on the processing

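No paired analysis was possible because values per library were not given here, and for the same reason no replicate could be left out. The joint fit may include other samples, since its mean for ANKRA2 is 31568, and levels are therefore approximate. The alternatives for the counts filter calls or adjust p anew on the same log2 fold changes, so no member could change direction under them. Subtracting the median of all genes, which was between -0.02 and 0.01, moved the members' median by no more than 0.02 and changed its sign in none of the 9 comparisons, and adjusting p anew among genes above the minimum mean kept each count of calls within 1.5 times.

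Counts of members that moved by more than 1.5 times are given with the count at an adjusted p under 0.05 in parentheses. In the Nutlin-3a response of siControl cells, a mean of at least 100 left 1 higher (3) and 6 lower (12), and a log2 change of at least 1 left 6 lower. In siANKRA2 cells, an adjusted p under 0.01 left 0 higher (1), and a log2 change of at least 1 left 0 higher and 2 lower (12). In siRFXANK cells, 1 was higher (3) at an adjusted p under 0.01 and also with a log2 change of at least 1, 8 were lower (15) with a mean of at least 100 and 4 with a log2 change of at least 1.

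For siANKRA2 over siControl in DMSO, a mean of at least 100 left 5 higher (9) and 2 lower (5), leaving out members that share 50% of their transcript left 3 lower, and a log2 change of at least 1 left 4 higher and 1 lower. In Nutlin-3a, 3 were lower (5) at an adjusted p under 0.01 and also without members that share sequence, and 3 higher (7) and 1 lower with a log2 change of at least 1. For siRFXANK over siControl in DMSO, 2 were lower (4) at an adjusted p under 0.01 and also with a mean of at least 100, and 2 higher (8) and 1 lower with a log2 change of at least 1. In Nutlin-3a, 2 were lower (4) at an adjusted p under 0.01, and 2 higher (8) and 1 lower with a log2 change of at least 1.

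For the difference of responses after siANKRA2, 3 were lower (5) at an adjusted p under 0.01 and also with a mean of at least 100, and 0 higher (4) and 1 lower with a log2 change of at least 1. After siRFXANK, 1 was lower (2) at an adjusted p under 0.01, and 0 were higher (3) and 0 lower with a log2 change of at least 1. Each of these settings tests or keeps fewer members by construction.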

Other observations

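The members with a mean under 100 given here were named after their values were seen, and HIST1H2BN and HIST1H2BE were mentioned above in part. HIST1H4J, an H4 gene with a mean of 15.2, was higher in DMSO after siANKRA2 (log2 fold change 1.33, deposited DESeq2 adjusted p = 0.004) and after siRFXANK (1.45, deposited DESeq2 adjusted p = 0.0016), with a level of 6.62 in siControl DMSO and 16.6 and 18.1 in the knockdown groups, and 82.2% of its transcript is shared with other genes. HIST1H4E, with a mean of 28.0, rose by 0.93 after siANKRA2 in DMSO and fell by 0.91 under Nutlin-3a in siANKRA2 cells, where it ended at a level of 26.6. HIST1H2BN went from 101.3 to 53.7 under Nutlin-3a in siControl cells, and its level in siANKRA2 DMSO, 53.6, was already near that value. HIST1H2BE was highest in siRFXANK DMSO, at 115, where it had risen by 0.71, and its levels in the other 5 groups ranged from 58.0 to 77.7.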
